A study of Mus musculus with 9 samples.

Results

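The 56 genes described here act in mitosis. They encode cyclins and kinases of mitotic entry, kinetochore and spindle checkpoint proteins, the chromosomal passenger complex, spindle factors, kinesin motors, condensin, chromosome structure proteins, the machinery of anaphase and mitotic exit, and cytokinesis factors. They were chosen by gene symbol for their known role and were sorted by that role into 9 groups. Earlier results of these data were known when they were chosen. All 56 had a row among the 49585 genes of the count table, and all 56 were among the 11619 genes that passed the filter on low counts and were tested. Bulk RNA sequencing had been done on mouse haematopoietic stem cell (HSC) cultures from which 3 cell populations were sorted, with 3 libraries of each. The cultures were started from bone marrow of wild-type C57BL/6 mice, using CD34-CD150+KSL cells (KSL cells carry Kit and Sca-1 but no lineage markers, the gate that holds HSCs and early progenitors). The medium was F12 with 0.1% polyvinyl alcohol (PVA), ITS supplement, thrombopoietin at 100 ng/ml and stem cell factor at 10 ng/ml.

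Shortened names are used below: CD201+CD48- stands for the CD201+CD150+CD48-KSL population, CD201+CD48+ for the population with the gate CD201+CD150+CD48+KSL, and CD201- for CD201-KSL. All 3 came from the same kind of culture, so every population had been exposed to the same medium and cytokines, and no uncultured cells were among the libraries. CD150+CD48+ is part of the gate in the titles of CD201- libraries but not in their treatment label. For the length of culture, 10 days stand in the design text, whereas a week is given under growth. Ages of the mice are not given, and the labels do not say whether replicates came from separate animals or cultures, so p-values measure the spread between these libraries, which may be technical. Over 5000 cells were sorted per population.

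A cell that enters mitosis raises cyclin B and CDK1 activity, condenses its chromosomes, builds a bipolar spindle and attaches each chromosome to it through the kinetochore. The spindle checkpoint holds the anaphase-promoting complex inactive until all kinetochores are attached. That complex then marks securin and cyclin B for destruction, separase cuts cohesin, and a central spindle and contractile ring divide the cell. Transcripts of these genes are made mainly in G2 and M phase, so their level in a cell population follows the share of its cells in those phases, and most HSCs in unperturbed adult marrow are quiescent. Many of these promoters carry a cell cycle genes homology region (CHR), an element with the letters TTTGAA or a near variant, together with CCAAT boxes. The CHR is known as a binding element of the DREAM complex, a repressor in non-dividing cells, and of the B-MYB and FOXM1 activators of G2 and M phase.

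Promoter sequence from RefSeq (GRCm38.p6, the assembly of mm10) was at hand for 46 of the 56 genes. The stretches below run from 120 bases before to 30 bases after the annotated start, 5′ to 3′ on the strand of the gene, and capitals mark TTTGAA or TTTAAA and CCAAT boxes on either strand (CCAAT or ATTGG). Mki67, Plk1 and Cdk1 are shown as genes that were lower in CD201+CD48- cells than in CD201- cells. Ccnb2, Kif23 and Ect2 are shown as genes that were not. The sequences are, in order, those at chr7:135716350-135716499 (minus strand), chr7:122159315-122159464 (plus strand), chr10:69352883-69353032 (minus strand), chr9:70421525-70421674 (minus strand), chr9:61946770-61946919 (minus strand) and, for the first of its 2 annotated starts, chr3:27153849-27153998 (minus strand).
Mki67: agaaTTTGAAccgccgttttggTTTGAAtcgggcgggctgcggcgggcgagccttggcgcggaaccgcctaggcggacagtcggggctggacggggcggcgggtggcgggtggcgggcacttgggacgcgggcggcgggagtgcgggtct
Plk1: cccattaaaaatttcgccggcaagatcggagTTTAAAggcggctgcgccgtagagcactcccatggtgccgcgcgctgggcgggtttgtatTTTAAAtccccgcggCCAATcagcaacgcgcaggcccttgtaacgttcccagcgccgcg
Cdk1: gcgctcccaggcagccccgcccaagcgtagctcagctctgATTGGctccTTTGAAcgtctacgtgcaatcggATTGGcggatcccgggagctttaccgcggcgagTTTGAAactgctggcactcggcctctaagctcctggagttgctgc
Ccnb2: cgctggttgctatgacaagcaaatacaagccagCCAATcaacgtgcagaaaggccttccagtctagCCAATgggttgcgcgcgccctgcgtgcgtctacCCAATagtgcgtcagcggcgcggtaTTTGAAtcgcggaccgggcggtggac
Kif23: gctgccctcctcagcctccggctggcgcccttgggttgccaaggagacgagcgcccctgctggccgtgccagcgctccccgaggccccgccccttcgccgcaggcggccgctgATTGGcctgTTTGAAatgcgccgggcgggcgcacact
Ect2: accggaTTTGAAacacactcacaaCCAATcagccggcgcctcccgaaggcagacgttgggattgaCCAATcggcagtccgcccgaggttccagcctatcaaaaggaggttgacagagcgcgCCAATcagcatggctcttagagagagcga

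Both kinds of gene carried the same letters. In the Cdk1 stretch TTTGAA began 71 and 15 bases before the start, in Mki67 116 and 98 bases before it, and in Kif23 and Ccnb2 at positions 3 and 5 after it. Plk1 had TTTAAA at 89 and 29 bases before its start, and TTTGAA at position 31 after it, just past the printed stretch. CCAAT boxes of Mki67 lay 188, 166 and 141 bases before its start, also outside its stretch. Over the whole windows of 300 bases (250 before to 50 after the start, both strands), TTTGAA was present in 33 of 46 mitotic genes (71.7%). The share was 20.2% of the 27025 genes in the promoter table, 14.1% of the tested genes among them and 13.2% of 38 DNA replication genes. At least 1 of TTTGAA and its variants TTTAAA and TTCGAA was present in 38 of the 46 (82.6%, against 31.9% of all genes in the table), and such a match together with a CCAAT box in 32 (69.6%, against 12.8%). CCAAT alone was in 33 of 46 (71.7%, against 41.1%). The E2F-type letters TTTCCCGC or TTTGGCGC were in 4 of 46 (8.7%) but in 12 of 38 DNA replication genes (31.6%), against 1.8% of all genes in the table. Each set of letters was searched on both strands and counted on its own, also where matches of different letters overlapped.

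**Figure D1:**
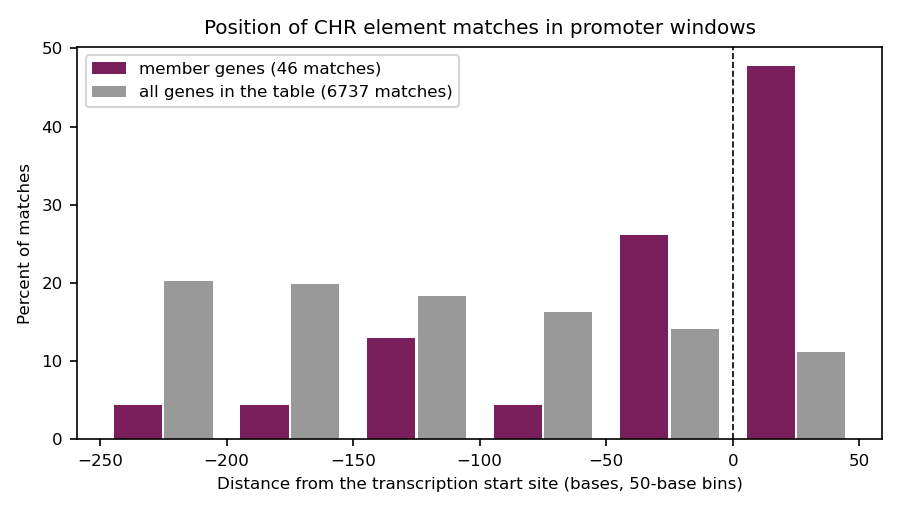
Position of TTTGAA matches in 300-base RefSeq promoter windows relative to the start site (50-base bins, percent of matches), for the mitotic genes and for all genes in the table. In the mitotic genes 73.9% of the matches lay within 50 bases of the start, against 25.3% in all genes of the table.

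The matches were close to the start: 34 of 46 TTTGAA matches in the mitotic genes (73.9%) began within 50 bases of it, against 25.3% of 6737 matches in all genes of the table. Ect2 and another member have 2 overlapping windows each, so a match there can be counted for both. Among members with TTTGAA, 29 of 33 were lower in CD201+CD48- cells than in CD201- cells, with a median log2 fold change of −0.58. Among the 13 without it, 10 were lower, with a median of −0.49. Of all genes tested, 23.9% were lower in this comparison. The letters were thus found among genes that were lower and among genes that were not, and Ccnb2, Kif23 and Ect2 all had them. A match in the sequence is no measure of binding.

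Levels are in CPM, read counts relative to the library total of tested genes multiplied by its TMM factor. TMM factors ran from 0.876 (CD201- replicate 3) to 1.05, so summed CPM were not equal between libraries. Over all genes tested the sums were 949360 to 960380 (CD201+CD48-), 970220 to 985110 (CD201+CD48+) and 1040500, 1039200 and 1141800 (CD201-). Levels in CPM compare a gene between libraries, not one gene with another, since they are not divided by transcript length. Every adjusted p is from edgeR's quasi-likelihood test of all 11619 genes in 9 libraries, with Benjamini-Hochberg adjustment over all genes of a comparison and a threshold of 0.05. Library totals were 3810123 to 7072885 counts. Among the sorted antigens and HSC markers, Procr, which encodes CD201, had mean levels of 63.2 CPM (CD201+CD48-), 26.5 CPM (CD201+CD48+) and 3.56 CPM (CD201-). Procr was lowest in the cells sorted as CD201-, while the CD201 gate sets no order between the CD201+ populations. The 10 HSC markers summed to 1983 to 2071 (CD201+CD48-), 1404 to 1460 (CD201+CD48+) and 844 to 876 CPM (CD201-). They include Procr, Slamf1 (CD150), Kit and Ly6a (Sca-1), genes of antigens in the sort gates, so the sort itself bears on this sum. One library stood apart from its group: counts of CD201- replicate 3 differed from those of CD201- replicates 1 and 2 by a chi-square of 13.42 and 12.79 per degree of freedom, against 1.36 to 3.62 in the other pairs within groups. Called values that moved by over 1.5 times without this library are given both ways.

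The mitotic genes were lowest in CD201+CD48- cells. Their summed level was 10865, 11203 and 10769 CPM in the 3 CD201+CD48- libraries, 14584, 15297 and 14606 CPM in the CD201+CD48+ libraries, and 15624, 15750 and 19769 CPM in the CD201- libraries. The CD201+CD48- values lay below all others, and the CD201+CD48+ values lay just below the CD201- values, with CD201- replicate 3 far above the rest. As a share of the counts of a library, the 56 genes took 1.13 to 1.16%, 1.49 to 1.55% and 1.50 to 1.73% in the same order. By this share the CD201+CD48+ and CD201- libraries overlapped: CD201+CD48+ replicate 2 (1.55%) lay above CD201- replicates 1 and 2 (1.50 and 1.51%). A sum weighs abundant genes most, and the median member in CD201- replicate 3 was 1.1 times the mean of CD201- replicates 1 and 2. In these bulk libraries, fewer cells in G2 and M phase and less of each transcript per cell cannot be told apart.

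**Figure D2:**
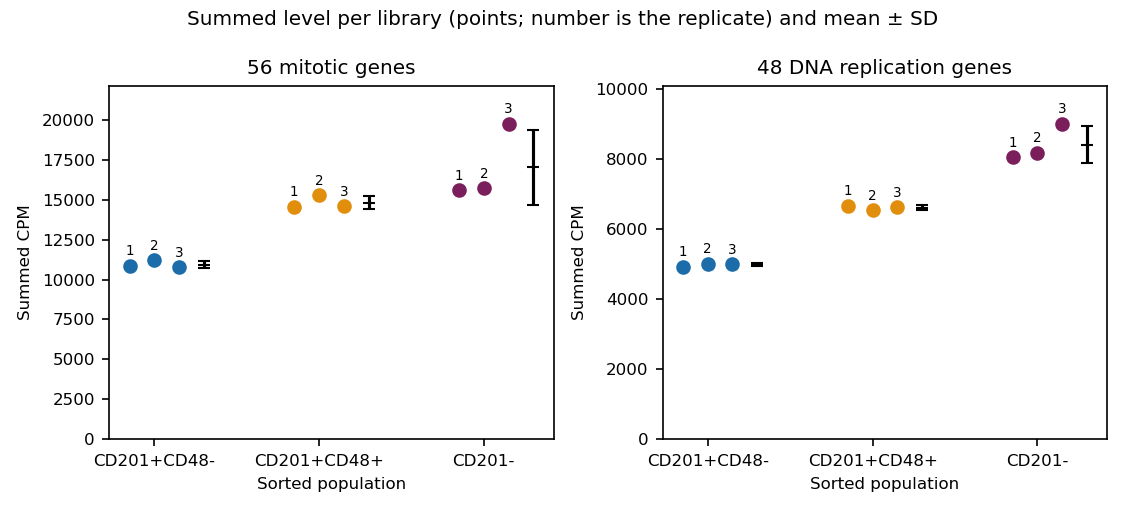
Summed CPM of the 56 mitotic genes and of 48 DNA replication genes in each library (points, numbered by replicate), with the mean and SD of 3 libraries per population. The CD201+CD48- libraries lie lowest in both sets, and CD201- replicate 3 is the highest point for the mitotic genes, at 19769 CPM.

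Between CD201+CD48- and CD201- cells, 49 of the 56 genes were lower, 1 was higher and 6 did not pass. Of all genes tested, 23.9% were lower and 24.2% higher. The median log2 fold change of the 56 was −0.58, against 0.00 over all genes tested, and values ran from −0.87 (Kif15) to 0.39 (Ect2). In 27 of the 49 the decrease was over 1.5-fold, a size that 9.01% of all genes tested had in that direction. Replicate values of the groups did not overlap for 51 genes in the lower direction (27.2% of all genes) and for 1 in the higher (28% of all genes). The lower calls of 40 genes, and the higher call of Ect2, held in each of 16 alternative analyses. The other 9 lower calls were those of Cdc25c, Spc25, Nusap1, Kif18a, Kif2c, Ncaph, Cdc20, Espl1 and Racgap1. Among these, Cdc20 and Espl1 were lost with library size scaling (adjusted p = 0.0829 and 0.0733) and Spc25 without the filter on low counts (adjusted p = 0.0748).

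Between CD201+CD48- and CD201+CD48+ cells, 45 of the 56 were lower, 0 higher and 11 did not pass. The corresponding shares of all genes tested were 6.31% lower and 9.05% higher. The median of the 56 was −0.42, with a range from −0.59 (Cdk1) to 0.03 (Pttg1), and replicate values did not overlap for 52 of them (19.7% of all genes). No member was higher at an unadjusted p under 0.05 in edgeR either, nor with DESeq2, and 53 were lower at an unadjusted p under 0.05. The count of 45 fell to 27 without CD201+CD48- replicate 1, to 26 without CD201+CD48- replicate 3 and to 29 without CD201+CD48+ replicate 2. It was 53 without CD201- replicate 3, which is in neither group but enters the filter, the scaling and the shared estimate of the spread, and those 53 included all 45. Calls of 23 genes held in all 16 alternatives. The 22 that did not were those of Ccnb2, Plk1, Cdc25b, Cenpe, Cenpf, Ndc80, Nuf2, Bub1b, Mad2l1, Cdca8, Dlgap5, Kif18a, Kif2c, Kif4, Smc2, Smc4, Ncapd2, Ncaph, Cdca2, Lbr, Kif23 and Kif20b.

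Between CD201+CD48+ and CD201- cells the members divided: 14 were lower, 2 higher and 40 did not pass, while 14.3% of all genes tested were lower and 14.8% higher. The median was −0.14. This comparison depended on single libraries. Without CD201- replicate 3 the count was 18 lower (13 of them among the 14) and 5 higher, and the median was −0.08. Without CD201+CD48+ replicates 1, 2 or 3 in turn, 8, 6 and 3 genes were lower. Scaling by library size alone left 3 lower and 4 higher, with a median of −0.0031. That scaling shifted the median log2 fold change over all genes by 0.13. Lower calls of Tacc3 and Lbr, and the higher call of Ect2, held in all 16 alternatives, and the other 12 lower calls and the higher call of Kif23 did not. The 3 comparisons share libraries and are not independent.

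**Figure D3:**
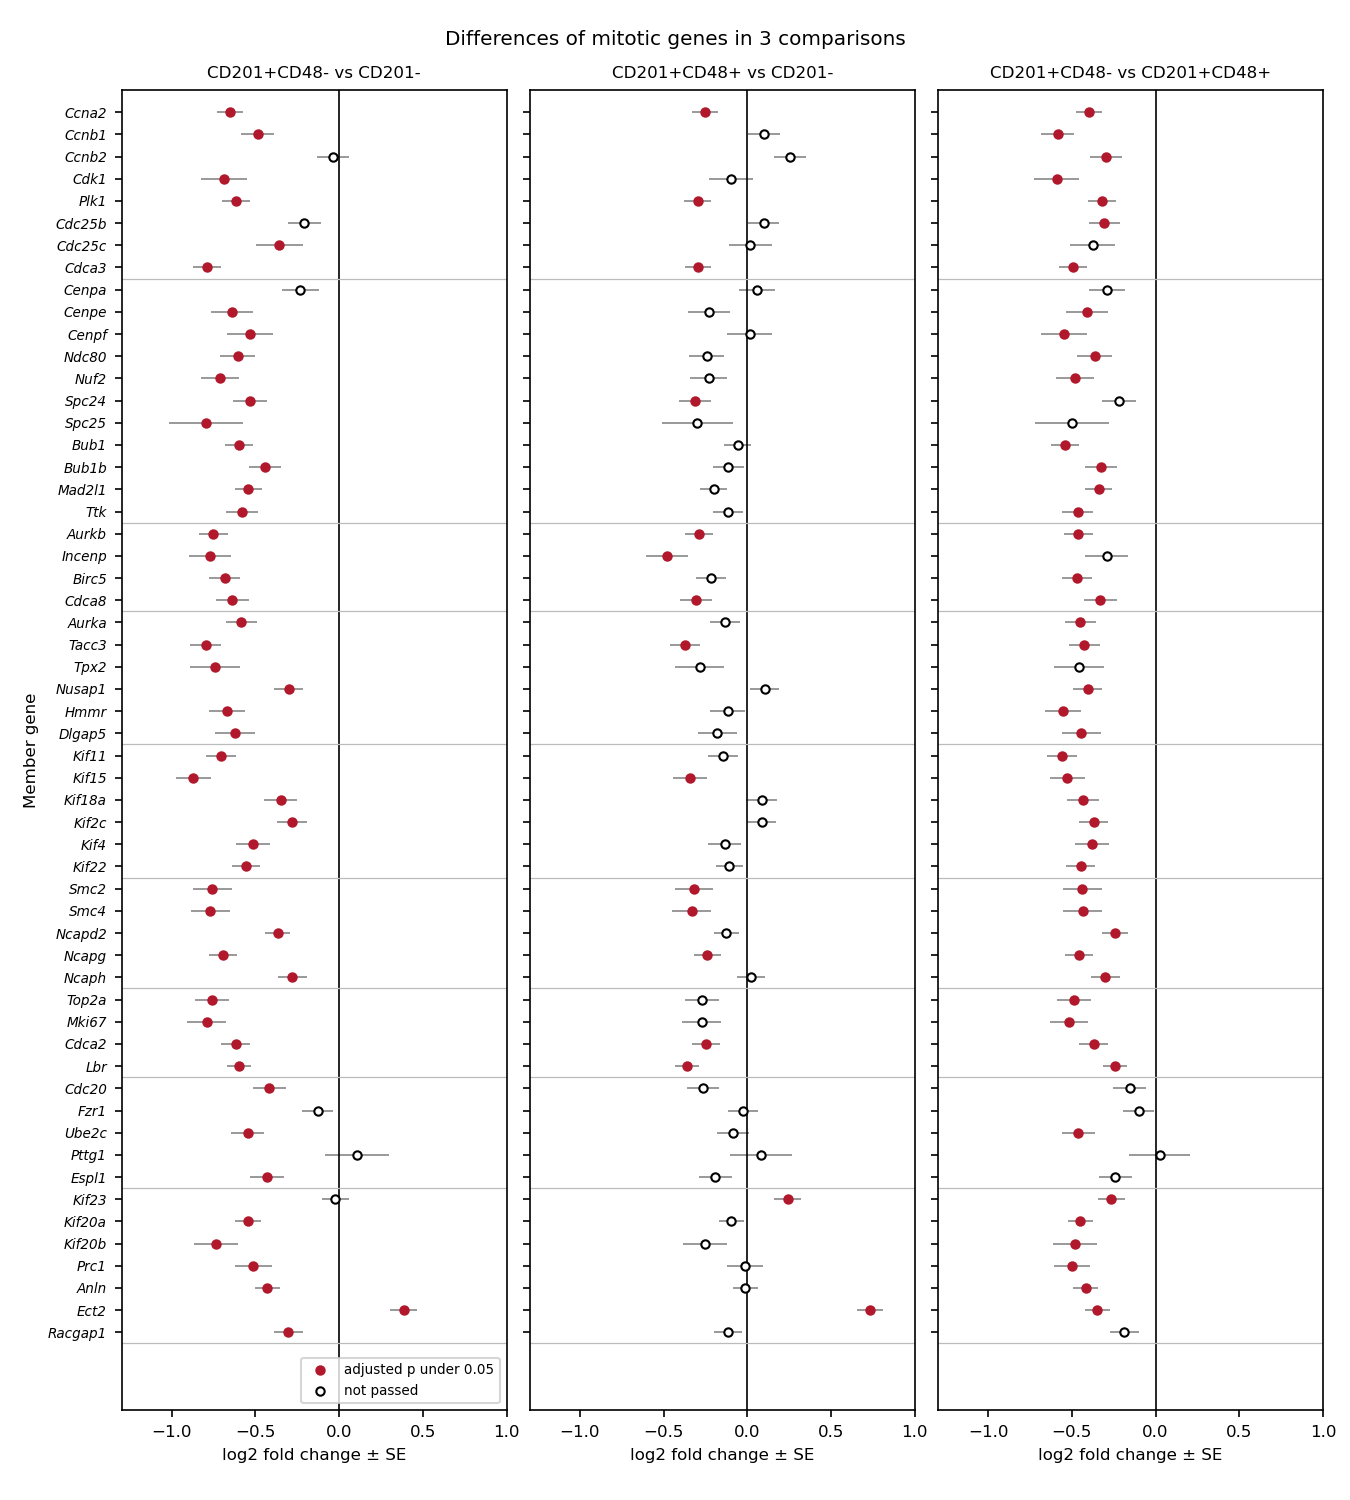
Log2 fold change ± SE of each of the 56 genes in the 3 comparisons (rows are genes, grouped by role with lines between groups). Filled points passed an adjusted p of 0.05 and open points did not. Most points lie to the left of 0 in the CD201+CD48- comparisons, and in the first of them Ect2 (0.39, filled) and Pttg1 (0.11, open) lie to the right.

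By the order of the means, 43 of the 56 genes (76.8%) were lowest in CD201+CD48- and highest in CD201- cells with CD201+CD48+ cells between, an order that 32.1% of all tested genes had. Another 11 (19.6%, against 7.57% of all genes) were lowest in CD201+CD48- and highest in CD201+CD48+ cells. The exceptions were Ect2, lowest in CD201- cells and highest in CD201+CD48+ cells, and Pttg1, whose means hardly differed. These orders describe means, and for 40 members the difference between CD201+CD48+ and CD201- cells did not pass the test.

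**Figure D4:**
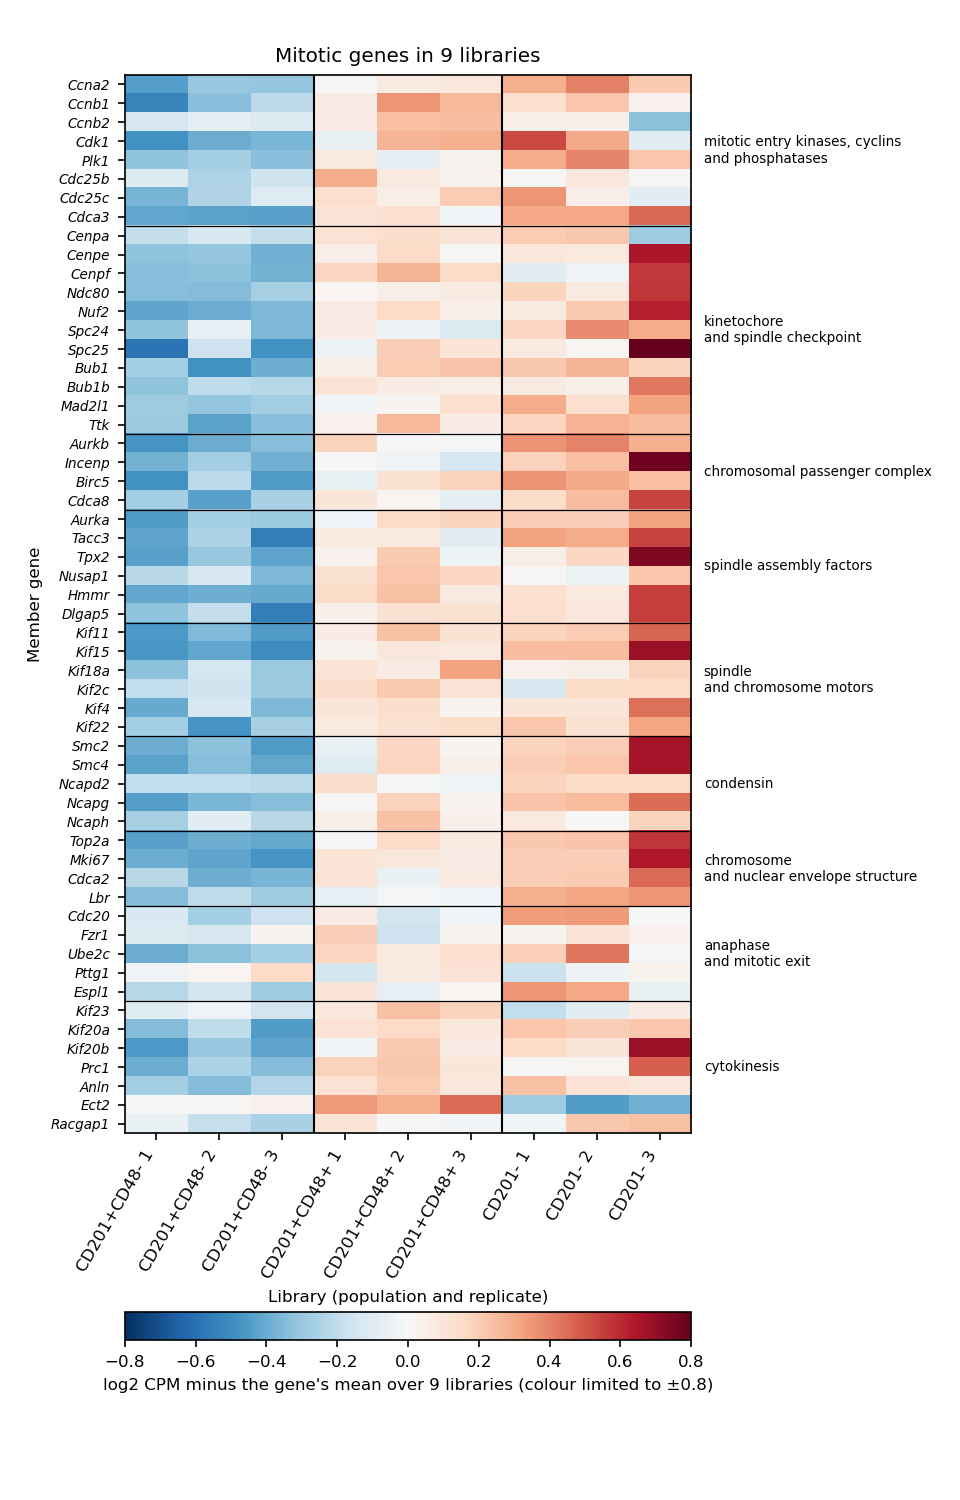
Log2 CPM of each of the 56 genes in the 9 libraries, as the deviation from the mean of that gene over all libraries (colour scale, log2 units). Rows are grouped by role and columns by population. The CD201+CD48- columns are below the mean for nearly all rows, and the Ect2 row is lowest in the CD201- columns.

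Among the genes of mitotic entry, 6 of 8 were lower in CD201+CD48- cells than in CD201- cells and 7 of 8 were lower than in CD201+CD48+ cells. Ccna2 (chr3:36564865-36573038), the cyclin of S phase and early mitosis, stood at 156, 172 and 171 CPM in CD201+CD48- libraries, at 210, 223 and 225 in CD201+CD48+ libraries, and at 260, 280 and 245 in CD201- libraries. The 3 groups did not overlap. Its log2 fold changes were −0.65 ± 0.08 (SE; adjusted p = 6.29e-06) against CD201- cells and −0.40 ± 0.08 (adjusted p = 0.00237) against CD201+CD48+ cells. Cdk1 (chr10:69335146-69352912), the kinase that drives mitotic entry, stood at 83.2, 88.2 and 90.1, then 112, 140 and 141, then 168, 143 and 109 CPM in the same order of groups. Its CD201- values spread over those of CD201+CD48+ cells, with replicate 3 the lowest. The difference between CD201+CD48- and CD201- cells was −0.69 ± 0.14 (adjusted p = 9.25e-04) and that between CD201+CD48+ and CD201- cells was −0.10 ± 0.13 (adjusted p = 0.623), or −0.24 (adjusted p = 0.0201) without CD201- replicate 3.

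The B-type cyclins, which bind CDK1, were unlike each other. Ccnb1 was 65.9, 75.3 and 81.9 CPM in CD201+CD48- libraries, 99.3, 121 and 113 in CD201+CD48+ libraries and 104, 111 and 97.1 in CD201- libraries. Both comparisons with CD201+CD48- cells passed (−0.49 ± 0.10 against CD201- cells, adjusted p = 8.8e-04). Ccnb2 (chr9:70407689-70421554) was 118, 124 and 120, then 136, 153 and 154, then 134, 134 and 103 CPM. Its CD201- libraries fell on both sides of the CD201+CD48- values, with a difference of −0.04 ± 0.10 (adjusted p = 0.781). Against CD201+CD48+ cells Ccnb2 was lower in CD201+CD48- cells by an amount just past the threshold (−0.29 ± 0.10, adjusted p = 0.0493). Of 16 alternatives, 11 lost this call (adjusted p from 1.23e-04 to 0.173), among them without each of the 6 CD201+ libraries.

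Plk1, the polo-like kinase of mitotic entry and spindle function, and Cdca3, which promotes mitotic entry, were lower than in CD201- cells in both CD201+ populations. Plk1 was 58.1, 60.1 and 57.6 CPM in CD201+CD48- libraries, 76.4, 68.8 and 74.0 in CD201+CD48+ libraries and 89.2, 95.3 and 84.8 in CD201- libraries. Its log2 fold changes against CD201- cells were −0.62 ± 0.08 and −0.30 ± 0.08 (adjusted p = 2.04e-05 and 0.0114), the second lost without CD201+CD48+ replicate 2 and with library size scaling (adjusted p up to 0.182). Cdca3 fell by 0.79 ± 0.08 in CD201+CD48- cells (adjusted p = 1.67e-06), and its call in CD201+CD48+ cells (adjusted p = 0.0105) was lost without CD201+CD48+ replicate 3 and with library size scaling (adjusted p up to 0.117). The phosphatases CDC25B and CDC25C activate CDK1. Against CD201- cells the values of CD201+CD48- cells were −0.21 ± 0.10 for Cdc25b (adjusted p = 0.0918) and −0.36 ± 0.14 for Cdc25c (adjusted p = 0.0464). Of 16 alternatives, 13 lost the call of Cdc25c (adjusted p from 0.00619 to 0.33), among them without each CD201+CD48+ library, CD201+CD48- replicates 1 and 2, and CD201- replicates 1 and 2. Without CD201- replicate 1 the Cdc25c value was −0.23 ± 0.15 (adjusted p = 0.216).

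**Figure D5:**
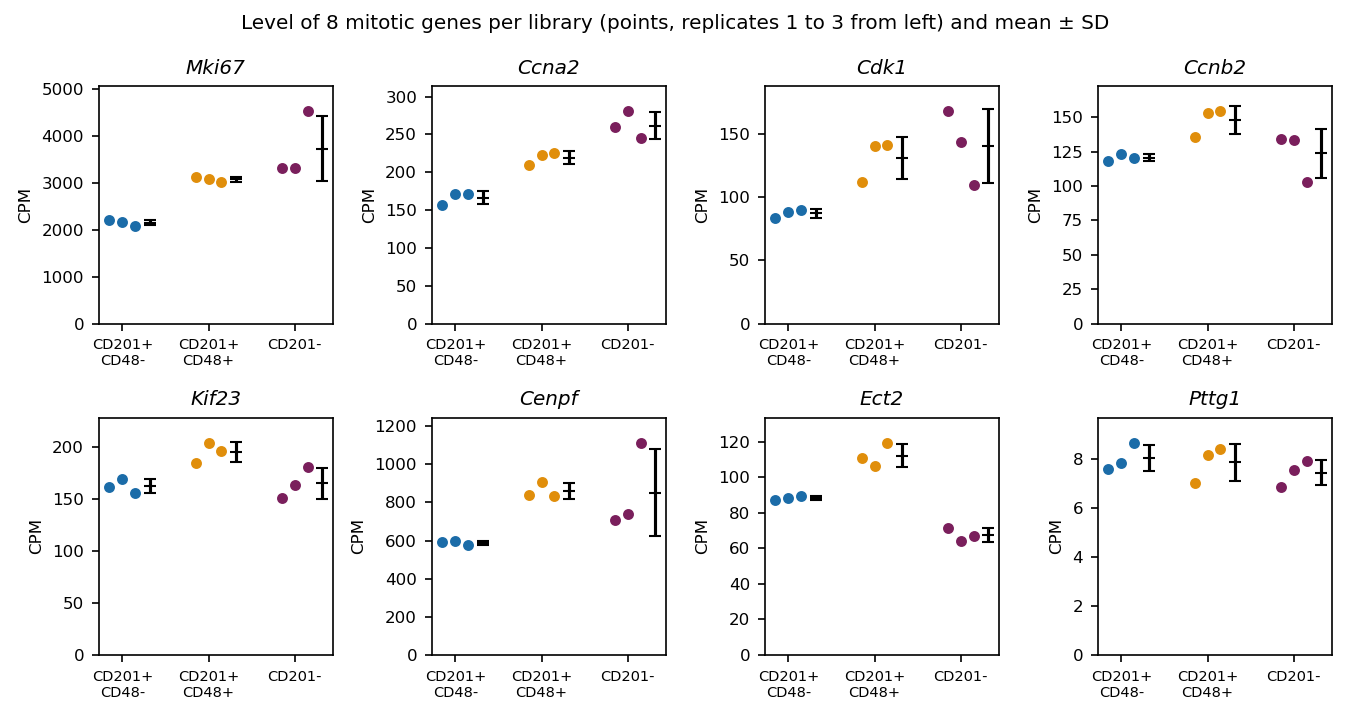
CPM of 8 mitotic genes in each library (points, replicates 1 to 3 from left to right) with the mean ± SD of 3 libraries beside them; each panel has its own axis from 0. Mki67 and Ccna2 are lowest in CD201+CD48- and highest in CD201- cells, Cdk1, Ccnb2 and Cenpf have a CD201- replicate 3 unlike the other CD201- libraries, and Ect2 is lowest in CD201- cells.

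Of the 11 kinetochore and spindle checkpoint genes, 10 were lower in CD201+CD48- cells than in CD201- cells, 8 were lower than in CD201+CD48+ cells, and 1, Spc24, was lower in CD201+CD48+ cells than in CD201- cells. The 4 genes of the NDC80 complex, which holds microtubule ends at the kinetochore, were all lower in CD201+CD48- cells than in CD201- cells. Nuf2 (chr1:169497934-169531464) was 109, 111 and 114 CPM in CD201+CD48- libraries, 153, 163 and 150 in CD201+CD48+ libraries, and 153, 169 and 225 in CD201- libraries, a log2 fold change of −0.71 ± 0.11 (adjusted p = 1.23e-04). Ndc80 and Spc24 gave −0.61 ± 0.11 and −0.53 ± 0.10 (adjusted p = 2.5e-04 and 4.35e-04). The call of Spc24 in CD201+CD48+ cells (adjusted p = 0.0234) was lost without CD201+CD48+ replicates 2 or 3, without CD201- replicate 2 and with library size scaling (adjusted p up to 0.184). Spc25 had the widest spread of the complex: its CD201- values were 93.0, 89.3 and 164 CPM, so its log2 fold change of −0.80 ± 0.22 (adjusted p = 0.0129) carries the largest SE among the members. The Spc25 value without CD201- replicate 3 was −0.46 ± 0.09 (adjusted p = 4.75e-05).

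Cenpe, a kinesin that carries chromosomes to the spindle equator, and Cenpf, a large protein of the outer kinetochore, were lower in CD201+CD48- cells in both comparisons. Against CD201+CD48+ cells, the Cenpe call (adjusted p = 0.041) was lost without each of the CD201+ libraries (up to 0.14), and the Cenpf call (adjusted p = 0.0137) without CD201+CD48- replicates 1 or 3 or CD201+CD48+ replicate 2 (up to 0.0595). Cenpf (chr1:189640606-189688107) was 592, 597 and 578 CPM in CD201+CD48- libraries, 841, 906 and 834 in CD201+CD48+ libraries, and 707, 737 and 1112 in CD201- libraries. CD201- replicates 1 and 2 lay below the CD201+CD48+ values and replicate 3 above them. The difference between CD201+CD48+ and CD201- cells was 0.01 ± 0.14 (adjusted p = 0.953), and without CD201- replicate 3 it was 0.25 ± 0.05 (adjusted p = 1.32e-04). Against CD201- cells, Cenpf in CD201+CD48- cells had −0.53, and −0.30 ± 0.05 (adjusted p = 4.98e-06) without that library. Cenpa, the histone H3 variant that marks centromeres, was the exception of this group. Its CD201- values were 102, 104 and 73.2 CPM against 78.2, 81.9 and 78.2 in CD201+CD48- libraries (−0.23 ± 0.11, adjusted p = 0.0962). Without CD201- replicate 3, Cenpa was lower in CD201+CD48- cells (−0.38 ± 0.08, adjusted p = 4.48e-05).

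Bub1, a checkpoint kinase, was 77.0, 66.5 and 70.9 CPM in CD201+CD48- libraries, 96.0, 107 and 109 in CD201+CD48+ libraries and 108, 112 and 105 in CD201- libraries. Its log2 fold changes were −0.60 ± 0.08 against CD201- and −0.54 ± 0.08 against CD201+CD48+ cells (adjusted p = 3.25e-05 and 3.87e-04), and both calls held in all alternatives. Ttk, the kinase that starts checkpoint signalling, had −0.58 ± 0.09 and −0.46 ± 0.09 (adjusted p = 1.2e-04 and 0.00301). Mad2l1 and Bub1b, which inhibit the anaphase-promoting complex, had −0.54 ± 0.08 and −0.44 ± 0.09 against CD201- cells (adjusted p = 6.44e-05 and 0.00127). None of these 4 genes passed between CD201+CD48+ and CD201- cells, where the values ran from −0.20 (Mad2l1) to −0.06 (Bub1).

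All 4 genes of the chromosomal passenger complex, which corrects faulty attachments and later guides cytokinesis, were lower in CD201+CD48- cells than in CD201- cells, with a median of −0.72. Incenp, the scaffold of the complex, was 245, 263 and 244 CPM in CD201+CD48- libraries, 319, 312 and 288 in CD201+CD48+ libraries, and 362, 375 and 545 in CD201- libraries. Its values in the 3 groups did not overlap, and the log2 fold change was −0.77 ± 0.13 (adjusted p = 1.83e-04). Birc5 (survivin) had −0.68 ± 0.09 and Cdca8 (borealin) −0.64 ± 0.10 (adjusted p = 2.27e-05 and 8.47e-05). In CD201+CD48+ cells, Incenp, Cdca8 and the kinase gene Aurkb were lower than in CD201- cells too (−0.48 ± 0.13, −0.31 ± 0.10 and −0.29 ± 0.08, adjusted p = 0.0108, 0.0261 and 0.0167). Each of these calls was lost without CD201+CD48+ replicate 3, and those of Cdca8 and Aurkb also without CD201+CD48+ replicate 2 and with library size scaling. The Cdca8 call was lost too with the 6 libraries compared, and the Aurkb call without CD201- replicate 2. Over all 16 alternatives, adjusted p was up to 0.0533 for Incenp, 0.143 for Cdca8 and 0.211 for Aurkb. Without CD201- replicate 3 the Incenp value was −0.27 ± 0.06 (adjusted p = 1.69e-04) and the Cdca8 value −0.18 ± 0.07 (adjusted p = 0.0432).

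Of the 6 spindle assembly factors, all were lower in CD201+CD48- cells than in CD201- cells and 5 were lower than in CD201+CD48+ cells. Tacc3 (chr5:33658128-33672203), which stabilises spindle microtubules, was 90.9, 102 and 83.0 CPM in CD201+CD48- libraries, 128, 128 and 115 in CD201+CD48+ libraries, and 152, 150 and 177 in CD201- libraries. The 3 groups were separate, and Tacc3 was 1 of the 2 genes lower in CD201+CD48+ cells than in CD201- cells in every alternative (−0.37 ± 0.09, adjusted p = 0.00663). Hmmr, a spindle-associated hyaluronan receptor, was 182, 185 and 183 CPM in CD201+CD48- libraries and 268, 285 and 255 in CD201+CD48+ libraries (−0.55 ± 0.11, adjusted p = 0.00239). The kinase gene Aurka had −0.58 ± 0.09 against CD201- cells (adjusted p = 1.06e-04), and its activator Tpx2 −0.74 ± 0.15 (adjusted p = 0.00119). Tpx2 in CD201- cells was 377, 409 and 614 CPM, and it did not pass against CD201+CD48+ cells (−0.46 ± 0.15, adjusted p = 0.0566).

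Nusap1, which bundles spindle microtubules, gave the smallest difference of this group against CD201- cells (−0.30 ± 0.09, adjusted p = 0.00897), and that call was lost without CD201+CD48- replicate 3 and with library size scaling (adjusted p up to 0.16). Between CD201+CD48+ and CD201- cells Nusap1 had 0.10 ± 0.08 (adjusted p = 0.388), and without CD201- replicate 3 it was higher in CD201+CD48+ cells (0.19 ± 0.07, adjusted p = 0.0198). Nusap1 overlaps Oip5 in the annotation, and Aurka overlaps Cstf1.

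All 6 motor genes were lower in CD201+CD48- cells in both comparisons. Against CD201+CD48+ cells, the calls of Kif4, Kif2c and Kif18a were lost in 4, 1 and 1 of 16 alternatives. Kif15 (chr9:122951081-123018733), a motor that helps keep the spindle bipolar, had the largest decrease of the 56. It stood at 204, 210 and 199 CPM in CD201+CD48- libraries, 287, 299 and 297 in CD201+CD48+ libraries, and 333, 334 and 454 in CD201- libraries. Kif15 had log2 fold changes of −0.87 ± 0.11 against CD201- cells (adjusted p = 7.49e-06) and −0.53 ± 0.10 against CD201+CD48+ cells (adjusted p = 0.00289). Kif11, the main motor that pushes the poles apart, was 308, 332 and 309, then 442, 497 and 461, then 478, 487 and 583 CPM (−0.71 ± 0.09 against CD201- cells, adjusted p = 1.25e-05). The chromosome-bound kinesins Kif22 and Kif4 gave −0.56 ± 0.09 and −0.52 ± 0.10 (adjusted p = 7.27e-05 and 6.05e-04).

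Against CD201- cells, Kif2c, a microtubule depolymerase, had −0.28 ± 0.09 (adjusted p = 0.0167) and Kif18a, which damps chromosome movements, −0.35 ± 0.10 (adjusted p = 0.00897). The Kif2c call was lost without CD201+CD48- replicate 3, without CD201- replicate 2 and with library size scaling (adjusted p up to 0.305), and the Kif18a call with library size scaling (adjusted p = 0.154). Against CD201+CD48+ cells their differences were −0.37 ± 0.09 and −0.43 ± 0.10 (adjusted p = 0.00967 and 0.00657), beside values from −0.56 (Kif11) to −0.38 (Kif4) for the other 4 motors. Kif15 alone of the 6 motors was lower in CD201+CD48+ cells (−0.34 ± 0.10 against CD201-, adjusted p = 0.0209). That call was lost without any 1 of the CD201+CD48+ libraries, with library size scaling and with the 6 libraries compared (adjusted p up to 0.0773). This Kif15 value without CD201- replicate 3 was −0.18 ± 0.06 (adjusted p = 0.0108).

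Condensin, the ring complex that compacts mitotic chromosomes, had all 5 genes lower in CD201+CD48- cells in both comparisons. Against CD201+CD48+ cells their log2 fold changes ran from −0.46 to −0.24. There only the Ncapg call held in all 16 alternatives, and those of Ncapd2, Smc4, Smc2 and Ncaph were lost in 9, 5, 4 and 4. The ATPase core subunit genes were alike: Smc2 was 299, 314 and 287 CPM in CD201+CD48- libraries, 378, 441 and 400 in CD201+CD48+ libraries and 446, 452 and 625 in CD201- libraries. Smc4 was 539, 573 and 546, then 677, 819 and 746, then 833, 846 and 1146 CPM. Against CD201- cells their log2 fold changes in CD201+CD48- cells were −0.76 ± 0.12 and −0.77 ± 0.12 (adjusted p = 8.2e-05 and 6.52e-05). Both subunits also serve condensin II. Among the subunits particular to condensin I, Ncapg fell by 0.70 ± 0.08 (adjusted p = 6.76e-06), Ncapd2 by 0.37 ± 0.08 (adjusted p = 8.66e-04) and Ncaph by 0.28 ± 0.09 (adjusted p = 0.0151). The Ncaph call was lost without CD201+CD48- replicates 1 or 3 and with library size scaling (adjusted p up to 0.293). In CD201+CD48+ cells, the calls of Smc2, Smc4 and Ncapg against CD201- (adjusted p = 0.0481, 0.0404 and 0.0375) were lost in 10, 9 and 9 of 16 alternatives. Their values for Smc2 and Smc4 were −0.32 and −0.33, and without CD201- replicate 3 they were −0.14 ± 0.06 and −0.17 ± 0.06 (adjusted p = 0.0484 and 0.0194).

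The 4 chromosome and nuclear envelope genes were lower in CD201+CD48- cells than in CD201- cells by over 1.5-fold each. Mki67 (chr7:135689784-135716450), the Ki-67 protein that coats mitotic chromosomes, was 2200, 2160 and 2085 CPM in CD201+CD48- libraries, 3126, 3081 and 3024 in CD201+CD48+ libraries, and 3325, 3315 and 4520 in CD201- libraries. The groups did not overlap, and CD201- replicates 1 and 2 were close to the CD201+CD48+ values. Mki67 had log2 fold changes of −0.79 ± 0.12 (adjusted p = 4.4e-05) against CD201- cells and −0.52 ± 0.11 (adjusted p = 0.00608) against CD201+CD48+ cells. Top2a, the topoisomerase that untangles sister chromatids, was 907, 934 and 921, then 1214, 1369 and 1284, then 1422, 1433 and 1820 CPM (−0.76 ± 0.10 against CD201- cells, adjusted p = 2.02e-05). Against CD201- cells neither passed in CD201+CD48+ cells (adjusted p = 0.0849 and 0.054). Top2a passed in 5 of 16 alternatives, with DESeq2, with no filter on low counts and without CD201- replicates 1, 2 or 3 (−0.14 ± 0.06 without replicate 3, adjusted p = 0.0341). Mki67 passed in 3, with no filter and without CD201- replicates 1 or 2, and without CD201- replicate 3 it was −0.11 ± 0.06 (adjusted p = 0.131).

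Lbr, the lamin B receptor of the nuclear envelope, was the other gene lower in CD201+CD48+ cells than in CD201- cells in every alternative. It was 255, 282 and 266 CPM in CD201+CD48- libraries, 310, 321 and 318 in CD201+CD48+ libraries, and 396, 405 and 415 in CD201- libraries. Against CD201- cells its log2 fold change was −0.36 ± 0.07 in CD201+CD48+ cells (adjusted p = 0.0017) and −0.60 ± 0.07 in CD201+CD48- cells (adjusted p = 7.5e-06). Cdca2, which brings a phosphatase to chromosomes at mitotic exit, fell by 0.62 ± 0.09 in CD201+CD48- cells (adjusted p = 3.58e-05). In CD201+CD48+ cells the Cdca2 value against CD201- cells was −0.25 (adjusted p = 0.0411), a call that 10 of 16 alternatives lost (adjusted p up to 0.3). Without CD201- replicate 3 it was −0.16 ± 0.07 (adjusted p = 0.0759).

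Of the 5 genes of anaphase and mitotic exit, 3 were lower in CD201+CD48- cells than in CD201- cells and 1, Ube2c, was lower than in CD201+CD48+ cells. Ube2c, the ubiquitin-conjugating enzyme of the anaphase-promoting complex, was 68.9, 72.3 and 75.3 CPM in CD201+CD48- libraries, 102, 95.8 and 99.6 in CD201+CD48+ libraries, and 103, 122 and 90.1 in CD201- libraries (−0.55 ± 0.10 against CD201- cells, adjusted p = 3.56e-04). Cdc20, the activator of that complex at anaphase, was 84.4, 76.1 and 81.9, then 96.2, 83.2 and 90.5, then 116, 116 and 91.8 CPM. Compared with CD201- cells, Cdc20 was lower in CD201+CD48- cells (−0.42 ± 0.10, adjusted p = 0.00258). It did not pass between the CD201+ populations (−0.15 ± 0.10, adjusted p = 0.339). Without CD201- replicate 3, both Cdc20 and the separase gene Espl1 were lower in CD201+CD48+ cells than in CD201- cells (−0.37 ± 0.08 and −0.31 ± 0.07, adjusted p = 1.19e-04 and 6.46e-04).

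Fzr1 and Pttg1 did not pass in any of the 3 comparisons. Fzr1 encodes CDH1, which keeps the anaphase-promoting complex active in late mitosis and G1, and was 88.6, 87.7 and 97.2 CPM in CD201+CD48- libraries, 110, 85.4 and 97.8 in CD201+CD48+ libraries and 97.4, 103 and 98.2 in CD201- libraries. Pttg1, securin, ranged from 6.86 to 8.63 CPM over the 9 libraries. All groups overlapped for Pttg1, and its differences were 0.11 ± 0.19, 0.08 ± 0.19 and 0.03 ± 0.18 (adjusted p = 0.683, 0.78 and 0.954), with a larger SE than most members. A p above the threshold does not show that levels were equal.

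Of 7 cytokinesis genes, 5 were lower and 1 higher in CD201+CD48- than in CD201- cells, while 6 were lower than in CD201+CD48+ cells. Ect2 (chr3:27097222-27154253), the exchange factor that activates RhoA at the cleavage furrow, was 87.4, 88.2 and 89.4 CPM in CD201+CD48- libraries, 111, 106 and 119 in CD201+CD48+ libraries, and 71.7, 64.1 and 67.1 in CD201- libraries. The 3 groups were separate, in an order that no other member had. Ect2 was higher than in CD201- cells by 0.39 ± 0.08 in CD201+CD48- cells (adjusted p = 0.00104) and by 0.73 ± 0.08 in CD201+CD48+ cells (adjusted p = 7.11e-06), and lower in CD201+CD48- than in CD201+CD48+ cells (−0.35 ± 0.08, adjusted p = 0.00602). All 3 calls held in all 16 alternatives. Ect2 overlaps the annotated genes Gm25152 and 1700125G22Rik, and how reads in such overlaps were counted is not given.

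Kif23 and Racgap1 encode the centralspindlin complex, which recruits ECT2 to the midzone. Kif23 (chr9:61917277-61946810) was 162, 169 and 156 CPM in CD201+CD48- libraries, 185, 204 and 196 in CD201+CD48+ libraries, and 151, 163 and 181 in CD201- libraries. Between CD201+CD48- and CD201- libraries the difference was within the spread (−0.02 ± 0.08, adjusted p = 0.831). Relative to CD201- cells, Kif23 was higher in CD201+CD48+ cells (0.24 ± 0.08, adjusted p = 0.0335), a call that 9 of 16 alternatives lost (adjusted p 1.16e-04 to 0.133), among them without each CD201+CD48- library, CD201- replicates 1 or 2, and CD201+CD48+ replicates 2 or 3. Its partner Racgap1 was lower in CD201+CD48- cells than in CD201- cells, at 132, 120 and 114 CPM in CD201+CD48- libraries and 133, 159 and 160 in CD201- libraries (−0.30 ± 0.09, adjusted p = 0.00948), a call lost without CD201+CD48- replicate 3 and with library size scaling (adjusted p up to 0.204).

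Prc1, which bundles the central spindle, and Anln, the anillin scaffold of the contractile ring, were lower in CD201+CD48- cells than in either other population. Prc1 was 136, 150 and 140 CPM in CD201+CD48- libraries, 203, 208 and 191 in CD201+CD48+ libraries, and 179, 181 and 249 in CD201- libraries. The comparison of CD201+CD48+ with CD201- cells gave −0.01 ± 0.11 (adjusted p = 0.938), and without CD201- replicate 3 it turned to 0.16 ± 0.06 (adjusted p = 0.0442). Anln had −0.43 ± 0.07 and −0.42 ± 0.07 against CD201- and CD201+CD48+ cells (adjusted p = 2.1e-04 and 0.00118). The kinesins Kif20a, which moves the passenger complex to the midzone, and Kif20b gave −0.54 ± 0.08 and −0.73 ± 0.13 against CD201- cells (adjusted p = 3.11e-05 and 3.69e-04). Thus, without CD201- replicate 3, Ect2, Kif23, Prc1, Cenpf and Nusap1 were the 5 members higher in CD201+CD48+ than in CD201- cells.

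Some values moved with these differences. In CD201- cells, 36 of the 56 members (64.3%, against 42.3% of all genes tested) were highest in replicate 3, and Spc25, Tpx2 and Cenpf exceeded the mean of replicates 1 and 2 by over 1.5-fold (1.80, 1.56 and 1.54). These 3 are 5.36% of the members, and 6.44% of all genes tested did so. Other members, such as Cdk1, Ccnb2, Cenpa, Cdc20, Ube2c and Espl1, were lowest there. Markers of other lineages also differed between the populations. The 8 megakaryocyte genes summed to 1639 to 1776 CPM in CD201+CD48- cells, 420 to 444 in CD201+CD48+ cells and 642 to 785 in CD201- cells, with at most 1 of the 8 at 0 in a library. The 8 mast cell genes summed to 5.09 to 9.60, 3.44 to 4.72 and 35.9 to 44.3 CPM, with 3 to 5 of them at 0. The 8 granulocyte and monocyte genes summed to 209 to 224, 188 to 208 and 155 to 188 CPM, although 3 of the 5 that could be tested were lower and 1 higher in CD201+CD48- cells than in CD201- cells. The 7 erythroid genes summed to 196 to 221, 136 to 148 and 49.97 to 92.5 CPM, with 3 to 5 of them at 0 in a library and only 2 that could be tested. The part of such cells, and of CD201- replicate 3, in the mitotic differences was not tested beyond leaving that library out.

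Genes next to the 56 in the same pathways were read from lists of their own, 104 genes in all, none of them among the 56. These lists, too, were chosen with earlier results of these data known. Of these 104, 74 were lower and 1 higher in CD201+CD48- than in CD201- cells, with a median of −0.45. In CD201+CD48+ against CD201- cells 28 were lower and 1 higher (median −0.15), and in CD201+CD48- against CD201+CD48+ cells 40 were lower and 0 higher (median −0.29). Over all genes tested the lower and higher shares were 23.9% and 24.2%, 14.3% and 14.8%, and 6.31% and 9.05% in that order. Of 18 regulators of mitotic genes, 14 were lower in CD201+CD48- cells than in CD201- cells. Mybl2, the B-MYB activator of these promoters, had mean levels of 38.4 CPM (CD201+CD48-), 53.4 CPM (CD201+CD48+) and 100.3 CPM (CD201-). Mybl2 had log2 fold changes of −1.39 ± 0.10 against CD201- cells and −0.48 ± 0.10 against CD201+CD48+ cells (adjusted p = 3.6e-08 and 0.0055). Foxm1, the other activator, had −0.33 ± 0.09 and −0.20 ± 0.09 (adjusted p = 0.0065 and 0.14).

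Beyond the NDC80 complex, 20 of 26 genes of the inner kinetochore and its outer scaffold were lower in CD201+CD48- cells than in CD201- cells and 1 was higher. In this comparison 23.9% of all genes tested were lower and 24.2% higher. Ska3 and Knl1, which bind microtubules and hold checkpoint proteins, gave −0.79 ± 0.11 and −0.64 ± 0.09. The gene that was higher was Cenpt, of the inner kinetochore, at 0.41 ± 0.11 (adjusted p = 0.0059). Of 8 further checkpoint genes 7 were lower, led by Trip13, a remodelling ATPase that frees MAD2, at −1.15 ± 0.10 (adjusted p = 2e-07). Condensin II and cohesin genes were lower in 12 of 16 cases, with Ncapg2 at −0.85 ± 0.09 and the cohesin protector Sgol1 at −0.72 ± 0.08.

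Of 16 genes of the anaphase-promoting complex and its inhibitors, 6 were lower and 0 higher between CD201+CD48- and CD201- cells, with a median of −0.20. The shares over all genes tested were 23.9% lower and 24.2% higher. Of the 16, 15 had a negative log2 fold change, and 2 were lower by over 1.5-fold. Fbxo5 (EMI1), an inhibitor of the complex, was lower at −0.75 ± 0.09 (adjusted p = 7.5e-06). The core subunits Anapc4, Anapc7 and Anapc2 had −0.01, −0.05 and −0.07 and did not pass. These subunits were named after their values were seen and do not stand for the rest of the list. Of 20 spindle, centrosome and cytokinesis genes 15 were lower. Among them were Plk4, the kinase of centriole duplication (−0.75 ± 0.09), and Cit, the citron kinase of the midbody (−0.63 ± 0.09). Knstrn, a spindle-associated gene, alone of the 104 was higher in CD201+CD48+ cells than in the CD201- population (0.33 ± 0.08, adjusted p = 0.0074).

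DNA replication genes, which act before mitosis in the cycle, gave a partly different picture. Their summed level was 4923, 5011 and 4998 CPM in CD201+CD48- libraries, 6663, 6540 and 6623 in CD201+CD48+ libraries, and 8048, 8170 and 8999 in CD201- libraries. The CD201+CD48+ values were thus apart from both other groups, while those of the mitotic genes lay near the CD201- values. Of 48 such genes, 47 were lower in CD201+CD48- cells than in CD201- cells (median −0.74) and 36 lower than in CD201+CD48+ cells (median −0.41). Between CD201+CD48+ and CD201- cells 31 of 48 were lower with a median of −0.32, beside 14 of 56 and −0.14 for the mitotic genes. Shares of all genes tested that were lower were 23.9%, 6.31% and 14.3% in these comparisons. The difference between the gene sets was not tested. Rrm2, of ribonucleotide reductase, had −1.36 ± 0.09 and −0.67 ± 0.08 against CD201- cells in CD201+CD48- and CD201+CD48+ cells.

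Inhibitors of the cell cycle did not move as a group. Of 13 listed genes, 10 could be tested. Against CD201- cells, the CD201+CD48- population had 3 of these at a higher level and 2 at a lower one. Over all genes tested, 24.2% were higher and 23.9% lower. Cdkn1c (p57), a CDK inhibitor of quiescent HSCs, had mean levels of 18.5 CPM (CD201+CD48-), 9.31 CPM (CD201+CD48+) and 9.77 CPM (CD201-). Its difference between CD201+CD48- and CD201- cells was 0.91 ± 0.17 (adjusted p = 3.4e-04). Btg2, an antiproliferative gene, had 0.82 ± 0.15 (adjusted p = 3.2e-04). Log2 fold changes of the 10 genes against CD201- cells ran from −0.86 to 0.91 in this population. By over 1.5-fold, 2 genes rose and 1 fell. Cdkn1a (p21) was lowest in CD201+CD48+ cells, at 14.4 CPM against 24.7 in CD201+CD48- and 29.8 in CD201- cells. Cdkn1b and the retinoblastoma genes Rb1 and Rbl2 did not pass in any comparison.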

How the data were processed

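Bulk RNA-seq libraries of 9 samples, 3 of each of 3 sorted populations, were analysed. Per the labels' protocols, SMARTer cDNA libraries gave paired-end reads, 36 nt long. The deposited table holds whole-number read counts per gene symbol, not normalized by the authors. The submitters' processing notes name mm10 and DESeq2 without versions or roles, and the sources used here do not give the annotation, the aligner, the counter or the use of strand. Reads of 22 of the 56 genes can overlap another annotated gene. A second deposited table of normalized values was not used here, and neither were 3 further columns of per-sample values, whose names fit no sample. Samples were grouped by their titles.

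Genes were kept by filterByExpr of edgeR 4.0.16 (minimum count 10), scaled by TMM and tested in R 4.3.3 with glmQLFit (robust) and glmQLFTest, with group as the only factor. SE was taken as |log2 fold change| over the root of F. Common biological coefficient of variation was 8.64%. Each of 16 alternatives per comparison changed 1 choice: DESeq2 1.42.0, DESeq2 size factors, library size alone, no filter, a minimum count of 50, a replicate block, the 6 libraries compared, or 1 of 9 libraries left out. Data of 9 libraries were also simulated, with few genes changed in 1 group (67 at 1.5-fold, 67 at 2-fold and 66 at 3-fold). Of these, 53.7 to 64.2% of genes changed 1.5-fold and 80.6 to 86.6% of those changed 2-fold were recovered, and 7.1 to 10.4% of calls were false. The share of genes changed was far smaller than the share called in these data, so the rates hold for that setting only. All 56 genes are described. Of the other lists, up to 4 genes with the smallest p in the first comparison, and members past the threshold against most of their list, were to be named, and Foxm1, the named core subunits of the anaphase-promoting complex, Knstrn, Cdkn1a, Cdkn1b, Rb1 and Rbl2 were added after their values were seen. The members and lists were chosen with earlier results of these data known. Coordinates and promoters are from RefSeq on GRCm38.p6. Figures were drawn with matplotlib 3.10.9.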

Additional observations from a re-analysis of the deposited data

How the results depend on the processing

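Of 2685 values of single genes over 3 comparisons and 16 alternatives, 2367 kept their direction and side of the threshold, 211 lost the call, 56 gained one and 51 changed sign. Library size alone moved the median of all genes by 0.17 (CD201+CD48- against CD201-) and 0.13 (CD201+CD48+ against CD201-) and, in the first, gave a member median of −0.41 and 1685 lower genes. A minimum count of 50, which tests fewer genes, gave a median of −0.54 there. In CD201+CD48+ against CD201- cells, library size alone gave 4 members higher, 3 lower, a median of −0.0031, 2701 genes higher and 851 lower. DESeq2 gave 1 member higher, and the 6 libraries compared gave 1 higher and 7 lower. Between the CD201+ populations, library size alone gave a median of −0.39, and the 6 libraries compared gave 1763 genes higher and 1576 lower. Other causes were not tested.

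With 1 library left out, the ranges were as follows. CD201+CD48- against CD201- cells: 45 to 50 members lower, median −0.61 to −0.52. CD201+CD48+ against CD201- cells: 1 to 5 members higher, 3 to 18 lower, median −0.19 to −0.077, and 1073 to 2115 genes lower. CD201+CD48- against CD201+CD48+ cells: 26 to 53 members lower, median −0.44 to −0.39, 663 to 1822 genes higher and 360 to 1712 lower.

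Of the values that changed sign, 1 passed after the change, Prc1 without CD201- replicate 3 in CD201+CD48+ against CD201- cells (0.16). Against CD201-, CD201+CD48- cells had Ccnb2 0.13, Fzr1 0.041 and Kif23 0.15 with library size alone, and Ccnb2 0.0018 and Kif23 0.016 with a minimum count of 50. CD201+CD48+ cells had, with library size alone, Cdk1 0.030, Bub1 0.074, Bub1b 0.025, Ttk 0.017, Aurka 0.0017, Hmmr 0.023, Kif4 0.0032, Kif22 0.028, Ncapd2 0.0069, Fzr1 0.11, Ube2c 0.044, Kif20a 0.038, Prc1 0.13, Anln 0.12 and Racgap1 0.019. With a minimum count of 50 they had Fzr1 0.00022, Prc1 0.0145 and Anln 0.016.

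With 1 library left out, Kif23 ranged from −0.0875 to 0.042 and Ccnb2 from −0.16 to 0.020 in the first comparison. In the second, the ranges were −0.24 to 0.051 (Cdk1), −0.11 to 0.25 (Cenpf), −0.00085 to 0.14 (Kif2c), −0.043 to 0.032 (Anln), −0.069 to 0.15 (Cdc25c), −0.042 to 0.070 (Ncaph), −0.18 to 0.037 (Ube2c), −0.087 to 0.14 (Cenpa), −0.46 to 0.046 (Spc25), −0.18 to 0.021 (Bub1b), −0.21 to 0.049 (Hmmr), −0.10 to 0.16 (Prc1), −0.12 to 0.060 (Fzr1) and −0.0027 to 0.14 (Kif18a). Pttg1 ranged from −0.049 to 0.081 between the CD201+ populations.

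Deviations of same-numbered libraries of different groups had correlations of −0.11 to 0.04. Such deviations, taken from means of 3 libraries, cannot tell whether same-numbered libraries share a culture or a sort. With a replicate block, 48 members were lower and 1 higher in CD201+CD48- against CD201- cells, 11 lower and 2 higher in CD201+CD48+ against CD201- cells, and 38 lower between the CD201+ populations. Depth limits single genes most where counts are low, as for Pttg1.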
